A study of Homo sapiens with 18 samples.

Results

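The joint effect of ZMYND8 overexpression and doxorubicin on the transcriptome was read from 4 of the 18 libraries of the series, 2 of ZMYND8 cells after 48 h of doxorubicin and 2 of GFP cells without the drug. Both are MDA-MB-231 cells, an established line of triple-negative breast cancer with a mesenchymal-like state and mutant p53. The cells carried a cDNA of Flag-tagged ZMYND8 or of GFP in the doxycycline-inducible lentiviral vector pInducer20, stably introduced under G418 selection, and every library used here came from cells given 250 ng/mL doxycycline. The ZMYND8 libraries also had 0.6 µM doxorubicin for 48 h, added 4 h after doxycycline, and each condition had 2 replicates that the labels call biological. The members are fixed by the sample labels, as the condition that received both changes against the condition that received neither. One cell line stands behind each construct, so a difference between the lines that does not come from ZMYND8 cannot be told apart from the effect of ZMYND8. The libraries of GFP cells with 48 h of doxorubicin and of untreated ZMYND8 cells, 2 each, are used to show at which step a gene moved.

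ZMYND8 is a chromatin reader with a PHD finger, a bromodomain and a PWWP domain that binds acetylated and methylated histone tails. It works with histone demethylases of the KDM5 family and with the NuRD deacetylase complex, and it is recruited to chromatin around DNA breaks. Doxorubicin is an anthracycline that intercalates into DNA and traps topoisomerase II on broken DNA, and it evicts histones from open chromatin. The comparison asks which genes differ when ZMYND8 is raised and a sublethal dose of the drug is given together.

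Poly(A) RNA was sequenced, and the values are read pairs counted per gene. The GFP libraries held 20864386 and 20053500 counts and the ZMYND8 libraries with doxorubicin 22142730 and 20888496, so depth differed by little between the conditions. Levels are given as CPM, which are counts scaled to library size with edgeR's TMM factors. These factors were 0.946 in both GFP libraries and 1.11 and 1.13 in the treated libraries, and in the libraries of GFP cells with doxorubicin 1.12 and 1.12. Fewer cells of a kind and less RNA per cell cannot be told apart in such bulk samples, and a rise is always relative to the other genes of its library. Genes that mark the line were present in all 4 libraries, with a summed level of VIM, CD44, EGFR, CAV1, KRT18 and KRT8 of 7999 and 7972 CPM in GFP cells and 4758 and 4605 CPM after ZMYND8 and doxorubicin. The estrogen and progesterone receptor genes ESR1 and PGR and the epithelial splicing gene ESRP1 stood below 1 CPM in all 4, whereas CDH1, also expected to be low in this line, went from 0.862 and 0.580 to 20.1 and 21.7 CPM. Of the immune markers, CD3E and PTPRC reached at most 2.04 CPM, and CD14, the lipopolysaccharide co-receptor, went from 19.8 and 18.3 CPM to 3.01 and 3.11 CPM. The summed endothelial markers (PECAM1, CDH5, VWF) ran from 2.42 to 6.29 CPM and the fibroblast markers (DCN, LUM, PDGFRA) from 0 to 1.19 CPM.

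ZMYND8 itself (chromosome 20, 47209214 to 47356889, minus strand, hg38) stood at 209 and 208 CPM in the untreated GFP libraries and at 1001 and 924 CPM in the ZMYND8 libraries with doxorubicin. The libraries did not overlap, and the gene was upregulated 4.62-fold (log2 fold change 2.21, SE 0.0458, edgeR adjusted p = 1.5e-24). The counts do not separate the cDNA from the resident gene. In GFP cells doxorubicin brought the level to 139.6 CPM, and untreated ZMYND8 cells stood at 924 CPM.

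Of 18801 genes tested, 4020 were called, meaning that they passed an adjusted p-value of 0.05 (edgeR, quasi-likelihood) and changed by 1.5 or more on the log2 scale. Of these, 2318 (12.3% of the genes tested) were upregulated and 1702 (9.05%) downregulated. At any size of change, 6956 genes (37%) passed the adjusted p-value upward and 6661 (35.4%) downward, and these shares are the background for the gene lists that follow. A gene said to rise or fall passed that test, with 2 libraries per condition. Protein-coding genes were called upward in 10.7% and downward in 9.41% of 14048 tested. Long noncoding RNAs were called upward in 18.4% and downward in 8.77% of 3377. A gene with few counts can pass the filter on low counts through a condition where it is high, so these shares are a description. The balance of directions depended on the level of the genes. Among the 1700 called genes with at least 5 CPM in the higher condition, 601 were up and 1099 were down, whereas 406 of the upregulated genes had no count in either GFP library and only 4 of those reached 5 CPM. Tested only among genes with a mean of at least 1 CPM, 44.6% of the called genes were upregulated. It also depended on the scaling. With total counts in place of TMM factors the median change over all genes (log2) moved from 0.05 to 0.29, a shift of 0.24, and the share of upregulated genes among those called from 57.7% to 69.6%.

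**Figure D1:**
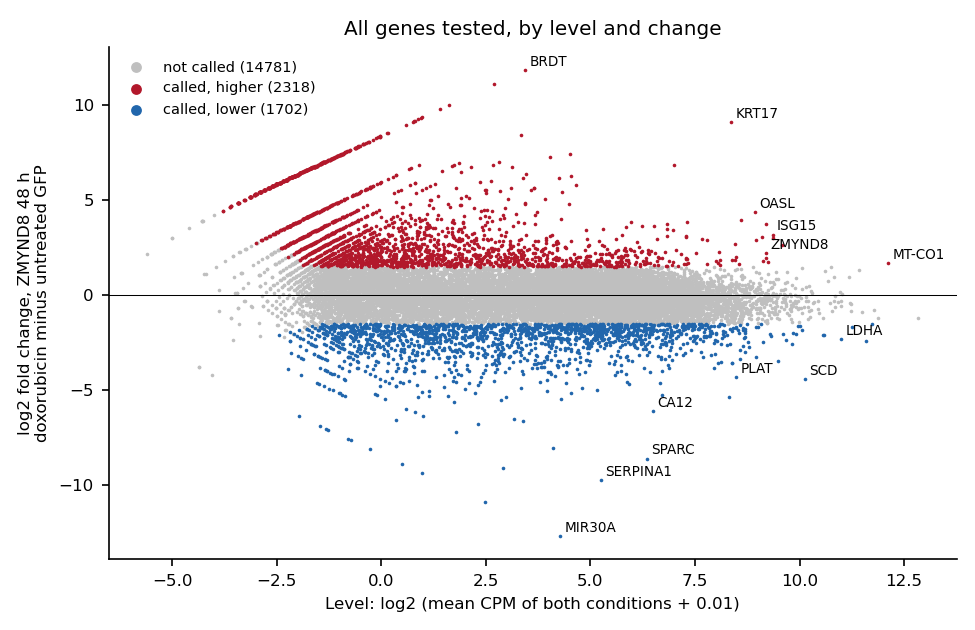
Each point is 1 of the 18801 genes tested, with the mean level of both conditions on the x axis (log2 of CPM + 0.01) and the log2 fold change of ZMYND8 cells with 48 h doxorubicin against untreated GFP cells on the y axis. Red points are the 2318 genes called higher and blue points the 1702 called lower, and the diagonal streaks at the left are genes with no or few counts in GFP cells, whose fitted fold change depends on the prior count.

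The largest rises among genes above 5 CPM were of genes that GFP cells hardly expressed. BRDT (chromosome 1, 91949371 to 92014426), the testis-specific bromodomain protein of the BET family, had 0 counts in both GFP libraries and 21.1 and 22.4 CPM after ZMYND8 and doxorubicin. Against a floor of 3 counts per library it was at least 140.1-fold higher (edgeR adjusted p = 1.7e-19). It already stood at 28.3 CPM in untreated ZMYND8 cells, against 0.804 CPM in GFP cells with doxorubicin, so its level was already high in the line before the drug. KRT9, a keratin of palm and sole epidermis, was also at 0 counts in GFP cells and reached 13.1 and 12.8 CPM, at least 83.7-fold higher. Each change alone left it low, with 1.499 CPM in GFP cells with doxorubicin and 0.337 CPM in untreated ZMYND8 cells.

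KRT17 (chromosome 17, 41619442 to 41624842), a basal keratin of stressed and injured epithelium, rose from 1.52 and 0.844 CPM to 664 and 651 CPM, 556-fold (log2 fold change 9.10, SE 0.0950, edgeR adjusted p = 2.0e-30). Both steps contributed, since it stood at 25.97 CPM in GFP cells with doxorubicin and 149 CPM in untreated ZMYND8 cells. The pseudogene KRT16P6 had 0 counts in GFP cells and 4.84 and 5.66 CPM in the treated cells. Reads that map to several places were not counted, so the values of this pseudogene and of KRT17, which has near-identical copies, are uncertain. MYO1G, a myosin of hematopoietic cells, rose from 0 and 2 counts to 474 and 491 counts, a ratio of 381 with a 95% interval of 107 to 3209 that covers counting error only. It stood at 12.1 CPM in untreated ZMYND8 cells and at 0.0876 CPM in GFP cells with the drug. ABCC9, the regulatory subunit of ATP-sensitive potassium channels, went from 0.253 and 0.264 to 48.3 and 42.8 CPM (log2 fold change 7.43, SE 0.219, edgeR adjusted p = 3.4e-21). GBP5, an interferon-induced GTPase, went from 0.203 and 0.211 to 33.4 and 31.6 CPM (log2 fold change 7.26, SE 0.216, edgeR adjusted p = 4.1e-21). In the long noncoding RNA IGFL2-AS1 the counts went from 1 and 3 to 356 and 319, a ratio of 134 (52.8 to 499.6). These 8 genes were chosen on the condition that both treated libraries lay above both GFP libraries.

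The 8 largest falls were of genes that GFP cells expressed and that ended below 1 CPM, and each of them was below 2 CPM in untreated ZMYND8 cells too. The first was MIR30A, a precursor gene of 71 bases (chromosome 6, 71403551 to 71403621, minus strand), with 819 and 680 counts in the GFP libraries and 0 in both ZMYND8 libraries with doxorubicin. That is at least 310.0-fold lower against 3 counts per library (edgeR adjusted p = 6.3e-21). Untreated ZMYND8 cells were at 0 as well, and GFP cells with doxorubicin were at 23.2 CPM. Mature microRNAs have no poly(A) tail, so the counts are of other RNA that overlaps this locus, and the mature products were not measured. Both mature products are shown from RefSeq (GRCh38.p14), 5′ to 3′, with the seed (bases 2 to 8) in capitals, because this locus had the largest fall. The seeds of the arms differ.
hsa-miR-30a-5p: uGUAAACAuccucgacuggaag
hsa-miR-30a-3p: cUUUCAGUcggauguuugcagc

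The other large falls held secreted and surface proteins. SERPINA1 (chromosome 14, 94376747 to 94390693), the elastase inhibitor alpha-1 antitrypsin, had 1569 and 1358 counts in GFP cells and 2 and 2 in the treated ZMYND8 cells, a ratio of 908 with a 95% counting interval of 355 to 3341. SERPINA5, the protein C inhibitor, fell from 33.7 and 34.5 to 0.203 and 0.0425 CPM (log2 fold change −8.03, SE 0.233, edgeR adjusted p = 2.4e-21). SPARC (chromosome 5, 151661096 to 151686975), a collagen-binding matrix protein, fell from 161 and 165 to 0.203 and 0.638 CPM, 388-fold (log2 fold change −8.60, SE 0.128, edgeR adjusted p = 1.7e-27). For all 3 genes untreated ZMYND8 cells were already low, at 0.318, 0.0996 and 1.18 CPM, whereas GFP cells with doxorubicin kept 56.5, 5.16 and 108 CPM. DRAXIN, an axon guidance protein that antagonises Wnt signals, went from 221 and 212 counts to 0, at least 89.7-fold lower, and both steps lowered it (1.45 CPM in GFP cells with doxorubicin and 0.279 CPM in untreated ZMYND8 cells). F2RL3, a thrombin receptor, had 309 and 267 counts against 0 and 1, a ratio of 699 (128 to 28334). NTM, an adhesion molecule of the immunoglobulin family, fell from 194 and 188 to 2 and 2 counts. The antisense RNA POU2F2-AS2 fell from 121 and 144 to 1 and 1.

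Genes were also ranked by the change in CPM among those called, which leaves out genes with a log2 change under 1.5, such as VIM and GAPDH. ACTB, cytoplasmic beta-actin, fell from 5065 and 4926 to 1789.7 and 1742 CPM (log2 fold change −1.50, SE 0.0600, edgeR adjusted p = 2.9e-18). Untreated ZMYND8 cells held 5330.1 CPM of ACTB, so it had not fallen in the line before the drug. The glycolytic enzymes LDHA and ENO1 also fell, LDHA from 3415 and 3392 to 680.3 and 674 CPM and ENO1 from 3771 and 3699 to 1185 and 1154 CPM. IGFBP4, a binding protein of insulin-like growth factors, fell 4.33-fold and NDRG1, a stress and hypoxia-responsive gene, 5.96-fold.

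The rises in CPM among called genes included the following. ZC3HAV1, the zinc-finger antiviral protein, rose from 83.3 and 81.3 to 1089 and 1087 CPM (log2 fold change 3.72, SE 0.0449, edgeR adjusted p = 2.5e-29) and was at 1164 CPM before the drug. PMAIP1 (NOXA), a BH3-only protein that opposes MCL1, rose from 119 and 117 to 975 and 984 CPM (log2 fold change 3.06, SE 0.0497, edgeR adjusted p = 8.5e-27). It stood at 110.4 CPM in GFP cells with doxorubicin and 1119 CPM in untreated ZMYND8 cells. PPP1R15A (GADD34), which directs the phosphatase of eIF2 alpha, rose from 116 and 119 to 912 and 848 CPM (log2 fold change 2.90, SE 0.0470, edgeR adjusted p = 8.0e-27), with 300.4 CPM in GFP cells with doxorubicin and 357 CPM in untreated ZMYND8 cells. MT-CO1, a cytochrome c oxidase subunit encoded in mitochondrial DNA, rose from 2039 and 2148 to 7197 and 6464 CPM (log2 fold change 1.71, SE 0.0998, edgeR adjusted p = 1.2e-14). All 13 protein-coding genes of the mitochondrial genome rose, a group looked at after the values of MT-CO1 were seen, and their summed level went from 7720.0 and 8165 to 22407 and 19949.8 CPM. Their median log2 fold change was 1.42, against 0.05 over all genes, and in the transient libraries described last it was −0.40.

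**Figure D2:**
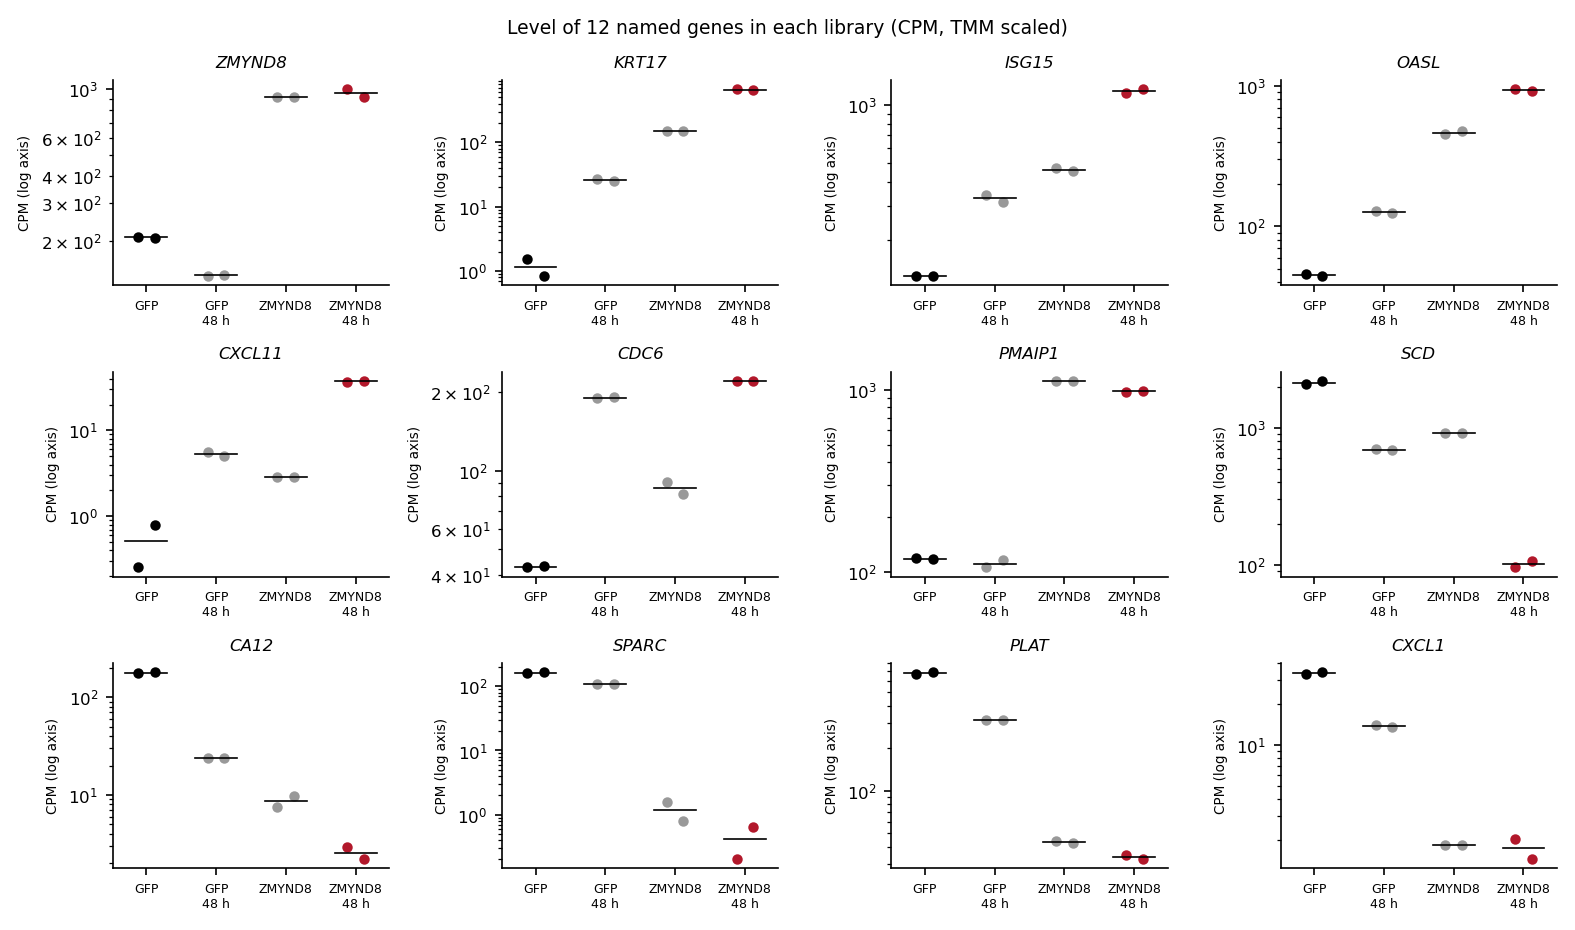
Each panel shows 1 gene, with the level in CPM on a log axis (the range differs between panels) in untreated GFP cells (black), GFP cells with 48 h doxorubicin (grey), untreated ZMYND8 cells (grey) and ZMYND8 cells with 48 h doxorubicin (red). Points are libraries, 2 per condition, and the line is their mean. Black and red points did not overlap in any of the 12 panels. The genes shown were picked among called genes, for which separate libraries are nearly given, so this is a description.

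The direction of pathways was read from 22 gene lists, in which a member rose or fell when it passed an adjusted p-value of 0.05 at any size of change. Interferon-stimulated genes encode antiviral effectors that are switched on by interferon or by sensors of foreign nucleic acid. Of this list, 37 of 52 rose, 12 fell and 3 did not pass, with a median log2 fold change of 1.38 and 25 members past 1.5 upward. Among the members with large rises were RSAD2 (viperin), from 1.01 and 0.738 to 49.9 and 49.7 CPM (log2 fold change 5.81, SE 0.144, edgeR adjusted p = 7.1e-23), and OASL, an oligoadenylate synthetase-like protein, from 45.6 and 44.4 to 944 and 913 CPM (log2 fold change 4.37, SE 0.0508, edgeR adjusted p = 1.3e-29). IFIT2 and IFIT3, which bind foreign RNA, rose 8.04-fold and 6.22-fold, and ISG15, a ubiquitin-like modifier, rose 9.10-fold from 129 and 129.6 to 1151 and 1207 CPM. CMPK2 and IFI44L rose by 4.73 and 4.47 (log2) from below 1 CPM.

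The steps differed between members. The median of the list was 0.22 for the line without doxorubicin, 0.93 for doxorubicin in GFP cells and 0.76 for doxorubicin in ZMYND8 cells. IFIT2 and IFIT3 were close to their final level in untreated ZMYND8 cells, at 1028 and 1169 CPM. So was ZC3HAV1, which is not in the list, at 1164 CPM. In contrast, ISG15 stood at 327 CPM in GFP cells with doxorubicin and 462 CPM in untreated ZMYND8 cells. Several members fell. GBP2, an interferon-induced GTPase, went from 91.04 and 95.6 to 5.57 and 5.70 CPM (log2 fold change −4.05, SE 0.0763, edgeR adjusted p = 1.9e-25), and IFITM1, which restricts viral entry, from 56.8 and 58.5 to 15.04 and 14.7 CPM (log2 fold change −1.96, SE 0.0690, edgeR adjusted p = 1.8e-19). The gene of a type III interferon, IFNL1, rose from 2 and 0 counts to 179 and 169, a ratio of 143 (38.5 to 1160.2).

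Interferon signals reach such genes through the interferon-stimulated response element. Its core was searched as GAAANNGAA on both strands in the RefSeq promoters (GRCh38.p14, 250 bases before to 50 after the start), overlapping matches included. It was found in 26 of 40 members of the list with a promoter in the table (65.000%). It was in 8.11% of 35116 promoters overall and in 6.60% of the promoters of tested genes. Among members that rose it was in 19 of 28, and among those that fell in 7 of 9, so the match did not separate the directions. The promoters of 3 members with large rises, picked after their values were seen, are shown 5′ to 3′ on the strand of the gene, with matches in capitals. ISG15 lies at chr1:1013247-1013546 (plus strand), IFIT3 at chr10:89327747-89328046 (plus) and RSAD2 at chr2:6865635-6865934 (plus).
ISG15: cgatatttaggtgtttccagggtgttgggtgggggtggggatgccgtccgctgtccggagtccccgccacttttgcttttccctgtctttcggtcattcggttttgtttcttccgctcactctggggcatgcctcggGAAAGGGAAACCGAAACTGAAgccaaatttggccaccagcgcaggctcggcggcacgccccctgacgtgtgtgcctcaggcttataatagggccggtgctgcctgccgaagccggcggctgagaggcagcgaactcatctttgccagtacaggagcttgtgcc
IFIT3: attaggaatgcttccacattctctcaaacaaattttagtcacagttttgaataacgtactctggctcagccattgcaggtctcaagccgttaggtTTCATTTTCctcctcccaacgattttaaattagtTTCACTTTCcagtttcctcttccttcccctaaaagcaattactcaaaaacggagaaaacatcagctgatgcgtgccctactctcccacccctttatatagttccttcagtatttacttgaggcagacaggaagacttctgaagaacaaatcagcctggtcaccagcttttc
RSAD2: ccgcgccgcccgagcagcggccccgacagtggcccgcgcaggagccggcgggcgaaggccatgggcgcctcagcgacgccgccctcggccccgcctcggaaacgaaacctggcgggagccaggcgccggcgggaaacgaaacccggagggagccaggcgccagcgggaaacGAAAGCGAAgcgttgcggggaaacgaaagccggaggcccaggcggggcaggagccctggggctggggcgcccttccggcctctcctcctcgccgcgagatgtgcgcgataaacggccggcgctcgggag
In ISG15 the matches overlap in a single run, in IFIT3 they are apart and on the other strand, and RSAD2 holds 1.

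Genes of antigen presentation went the other way. Of the MHC class I and antigen processing list, 1 of 15 rose, 11 fell and 3 did not pass, with a median of −0.63. PSMB10, a subunit of the immunoproteasome, fell from 29.8 and 28.95 to 11.1 and 10.6 CPM (log2 fold change −1.44, SE 0.0886, edgeR adjusted p = 4.0e-14), and the chaperones of class I assembly PDIA3 and CALR fell 2.51-fold and 2.24-fold. HLA-B went from 81.5 and 65.98 to 43.95 and 40.03 CPM (log2 fold change −0.81, SE 0.0706, edgeR adjusted p = 5.7e-11), while B2M, the light chain of class I, was at 294 and 332 CPM and 337 and 331 CPM (edgeR adjusted p = 0.099). The B2M value passed the test in DESeq2, with total counts, at a mean of at least 1 CPM, with the 4 libraries alone and without the second GFP library, and its sign changed without the first GFP library. List medians of the steps were −0.67 for the line without doxorubicin, −0.23 for doxorubicin in GFP cells and 0.22 for doxorubicin in ZMYND8 cells.

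Cytokines, chemokines and NF-kB feedback genes carry inflammatory signals between cells, and the list held changes both ways. Of its members, 12 of 38 rose, 25 fell and 1 did not pass, with a median of −1.09. The neutrophil chemokines CXCL1 and CXCL8 fell, CXCL1 from 32.9 and 34.2 to 2.03 and 1.45 CPM (log2 fold change −4.26, SE 0.139, edgeR adjusted p = 3.3e-20) and CXCL8 from 55.4 and 54.4 to 4.84 and 5.53 CPM (log2 fold change −3.40, SE 0.112, edgeR adjusted p = 4.2e-20). CCL2, the monocyte attractant, had 35 and 32 counts in GFP cells and 1 and 1 in the treated cells, a ratio of 41.6 (11.1 to 351). NFKBIA, the inhibitor that holds NF-kB in the cytoplasm, fell 4.10-fold, whereas TNFAIP3 (A20), another NF-kB feedback gene, rose 4.76-fold and IL6 4.56-fold. CXCL11, an interferon-induced chemokine for T cells, rose from 0.253 and 0.791 to 36.7 and 37.8 CPM (log2 fold change 6.15, SE 0.193, edgeR adjusted p = 1.4e-20). CCL5 passed the test (edgeR adjusted p = 2.1e-06), but its treated libraries were far apart, at 13.7 and 1.06 CPM against 0.0507 and 0.105 CPM in GFP cells. Medians of the steps were −1.07 for the line without doxorubicin, −0.40 for doxorubicin in GFP cells and 0.27 for doxorubicin in ZMYND8 cells.

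**Figure D3:**
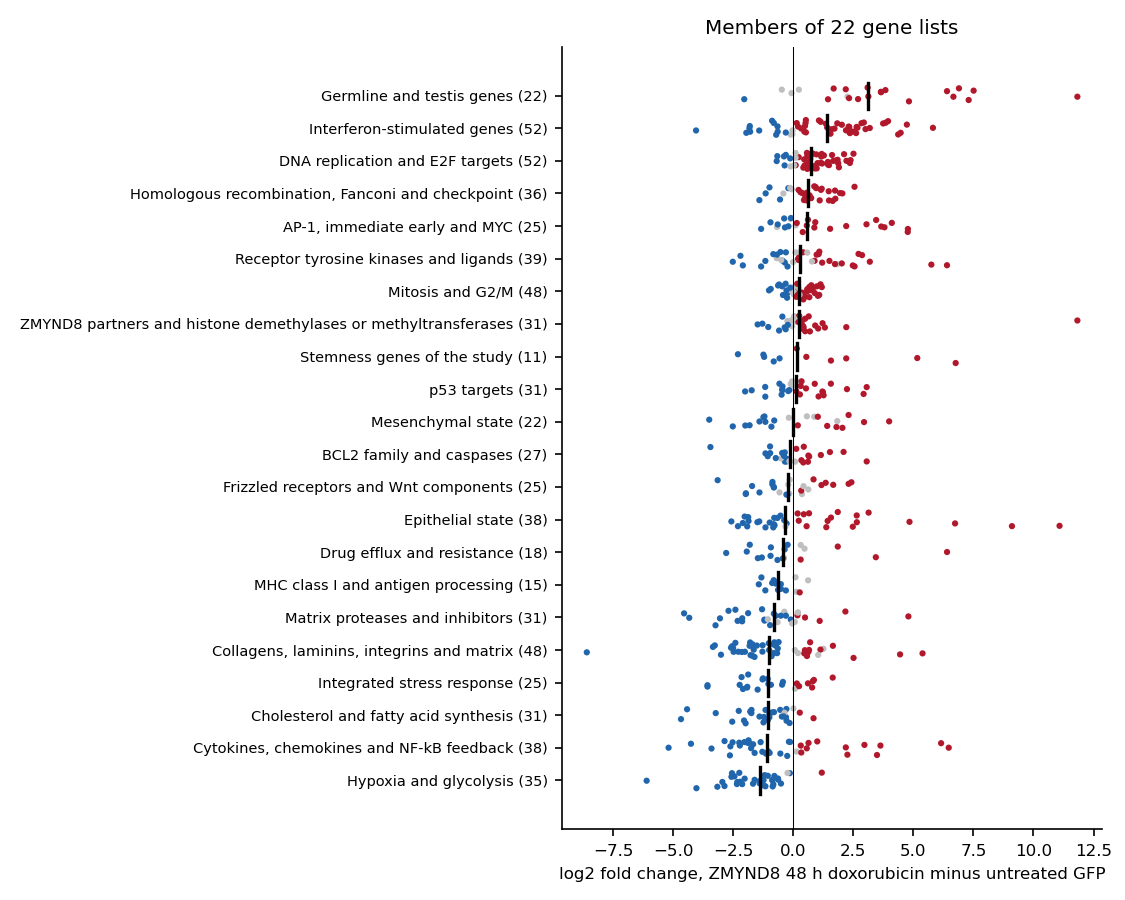
Each row is 1 of 22 gene lists (number of members tested in brackets), sorted by the median, and each point a member at its log2 fold change on the x axis, ZMYND8 cells with 48 h doxorubicin against untreated GFP cells. Red and blue members rose or fell at an adjusted p-value of 0.05, grey members did not pass, and black bars are medians, from −1.40 in hypoxia and glycolysis to 3.11 in germline and testis genes.

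Glycolysis turns glucose into pyruvate and lactate, and many of its enzymes share control by hypoxia-inducible factors with genes of pH balance and matrix crosslinking. Of this list, 1 of 35 rose, 33 fell and 1 did not pass, and 16 fell past 1.5, with a median of −1.40. The member that rose was ADM, which encodes the peptide hormone adrenomedullin, from 59.2 and 63.97 to 145 and 135 CPM. CA12, a carbonic anhydrase of the cell surface, fell from 176 and 179.6 to 2.93 and 2.21 CPM, 69.2-fold (log2 fold change −6.10, SE 0.0993, edgeR adjusted p = 8.5e-27). ALDOC, an aldolase, fell from 39.7 and 40.03 to 2.24 and 2.64 CPM (log2 fold change −4.03, SE 0.127, edgeR adjusted p = 1.4e-20), LOX, which crosslinks collagen, 8.96-fold, and PFKFB4, which sets the level of a glycolytic activator, 7.74-fold. LDHA, which makes lactate, fell 5.03-fold (log2 fold change −2.33, SE 0.0361, edgeR adjusted p = 3.6e-27) and the often used reference gene GAPDH by 0.87 on the log2 scale. Both steps went down for LDHA, with 1424 CPM in GFP cells with doxorubicin and 2131 CPM in untreated ZMYND8 cells. The list medians were −0.30 for the line without doxorubicin, −0.94 for doxorubicin in GFP cells and −1.15 for doxorubicin in ZMYND8 cells.

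The core of the hypoxia response element, ACGTG, was found in 14 of 32 promoters of the list (43.8%), both strands searched. It was in 21.4% of all promoters of that length and in 25.7% of the promoters of tested genes. These 5 letters are short and also lie within other motifs, such as CACGTG. The LDHA promoter (chr11:18394313-18394612, plus strand) is shown with its matches in capitals, as it held 5 matches, 4 of them as both strands of 2 CACGTG words.
LDHA: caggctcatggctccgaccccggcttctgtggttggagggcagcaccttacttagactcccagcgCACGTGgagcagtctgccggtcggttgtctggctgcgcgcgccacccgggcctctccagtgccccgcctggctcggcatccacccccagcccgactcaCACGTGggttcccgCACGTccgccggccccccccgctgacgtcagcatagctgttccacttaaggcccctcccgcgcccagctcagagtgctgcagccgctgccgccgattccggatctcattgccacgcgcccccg

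Cholesterol and fatty acid synthesis is driven by the SREBP transcription factors when sterols run low. In this list, 2 of 31 rose, 27 fell and 2 did not pass, with a median of −1.06. SCD, which makes monounsaturated fatty acids, fell from 2090.3 and 2214 to 95.3 and 105 CPM, 21.4-fold (log2 fold change −4.42, SE 0.0483, edgeR adjusted p = 3.2e-30). ELOVL6, a fatty acid elongase, fell 9.38-fold. SREBF1, the gene of SREBP-1, fell from 312 and 320.0 to 52.9 and 55.6 CPM (log2 fold change −2.54, SE 0.0509, edgeR adjusted p = 6.8e-25). Fatty acid synthase (FASN) fell 3.46-fold, while EBP, a sterol isomerase, rose from 16.7 and 16.8 to 30.6 and 29.4 CPM. SCD stood at 691 CPM in GFP cells with doxorubicin and 923 CPM in untreated ZMYND8 cells, and the list medians were −0.33 for the line without doxorubicin, −0.25 for doxorubicin in GFP cells and −0.71 for doxorubicin in ZMYND8 cells. The sterol regulatory element, searched as TCACNCCAC, was in 1 of 23 promoters of the list, in 1.13% of all and in 1.14% of those of tested genes.

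The integrated stress response couples phosphorylation of eIF2 alpha to the factor ATF4 and its targets in amino acid supply. Of its list, 7 of 25 rose, 16 fell and 2 did not pass, with a median of −1.04. The largest rise in the list was 1.64 (log2). PPP1R15A and ATF3, whose larger rises are given in other paragraphs, are not members, so the list covers only part of this response. PHGDH, the first enzyme of serine synthesis, fell from 23.9 and 25.7 to 1.59 and 2.59 CPM (log2 fold change −3.57, SE 0.177, edgeR adjusted p = 3.1e-16). DDIT4 (REDD1), an inhibitor of mTORC1, fell from 603 and 638 to 51.3 and 53.1 CPM (log2 fold change −3.57, SE 0.0505, edgeR adjusted p = 6.9e-28), with 79.1 CPM in GFP cells with doxorubicin and 446 CPM in untreated ZMYND8 cells. NUPR1, a stress cofactor, and VLDLR, a lipoprotein receptor, fell 4.70-fold and 4.45-fold. ATF4 itself fell from 441 and 459.7 to 332 and 336 CPM, while DDIT3 (CHOP), its proapoptotic target, rose from 19.7 and 22.8 to 66.4 and 66.1 CPM (log2 fold change 1.64, SE 0.0785, edgeR adjusted p = 1.5e-16).

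Collagens, laminins and integrins make the matrix and its receptors, and 11 of 48 rose, 33 fell and 4 did not pass, with a median of −1.01. COL6A3, a chain of collagen VI, fell from 48.6 and 41.2 to 3.86 and 4.98 CPM (log2 fold change −3.35, SE 0.121, edgeR adjusted p = 2.8e-19). Fibronectin (FN1) fell 3.53-fold and integrin beta 1 (ITGB1), the shared partner of many integrins, 3.13-fold. The laminin LAMA1 rose from 2 and 1 to 78 and 89 counts and the integrin ITGA4 from 1 and 0 to 13 and 20. For the matrix proteases and their inhibitors, 5 of 31 rose, 19 fell and 7 did not pass (median −0.81). PLAT, the tissue plasminogen activator, fell from 673 and 688 to 34.8 and 32.8 CPM (log2 fold change −4.33, SE 0.0470, edgeR adjusted p = 3.2e-30), nearly all of it in the line (43.2 CPM before the drug). MMP14, a membrane-bound matrix protease, fell from 908 and 906 to 96.3 and 95.9 CPM (log2 fold change −3.24, SE 0.0489, edgeR adjusted p = 2.1e-27), and stood at 304 CPM in GFP cells with doxorubicin and 345 CPM in untreated ZMYND8 cells. SERPINB2, an inhibitor of urokinase, rose from 0.710 and 0.791 to 21.997 and 19.9 CPM (log2 fold change 4.79, SE 0.170, edgeR adjusted p = 2.1e-19).

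Epithelial and mesenchymal lists both held rises and falls. Of the epithelial list, 17 of 38 rose, 20 fell and 1 did not pass (median −0.35), and of the mesenchymal list, 8 of 22 rose, 10 fell and 4 did not pass, with a median of 0.00 whose sign changed with the processing. E-cadherin (CDH1), which joins epithelial cells, rose from 0.862 and 0.580 to 20.1 and 21.7 CPM, 28.9-fold (log2 fold change 4.84, SE 0.211, edgeR adjusted p = 2.0e-17), with 10.7 CPM in GFP cells with doxorubicin and 4.16 CPM in untreated ZMYND8 cells. KRT14, the partner keratin of basal cells, rose from 0.101 and 0.211 to 16.3 and 17.99 CPM, from few counts, while GRHL2, an epithelial transcription factor (1 and 1 against 7 and 10 counts), lost its call in DESeq2 and without either GFP library or the second treated library. EPCAM, an epithelial adhesion molecule, fell from 37.4 and 36.97 to 8.13 and 6.89 CPM (log2 fold change −2.30, SE 0.0961, edgeR adjusted p = 7.2e-18). On the mesenchymal side TGFBI, a matrix protein induced by TGF-beta, fell from 521 and 511 to 46.9 and 44.4 CPM (log2 fold change −3.50, SE 0.0516, edgeR adjusted p = 1.3e-27) and PDGFRB, a growth factor receptor of mesenchymal cells, 5.74-fold. CNN1, a smooth muscle calponin, rose from 0.152 and 0.158 to 2.68 and 2.42 CPM, and DCN, at 2 and 0 against 6 and 15 counts, lost its call in DESeq2 and without the second library of either condition.

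The genes that the study followed for epithelial-mesenchymal transition, stemness and drug resistance went in both directions. VIM fell from 4494 and 4468 to 2639 and 2535 CPM (log2 fold change −0.79, SE 0.0447, edgeR adjusted p = 5.6e-15) and ZEB1 from 112 and 115 to 50.5 and 48.2 CPM (log2 fold change −1.20, SE 0.0492, edgeR adjusted p = 5.1e-18), whereas SNAI2 rose from 35.1 and 36.8 to 71.03 and 74.95 CPM (log2 fold change 1.02, SE 0.0589, edgeR adjusted p = 8.8e-15). CD44 fell from 1238 and 1252 to 539 and 512 CPM (log2 fold change −1.24, SE 0.0393, edgeR adjusted p = 1.6e-20) and CD24 rose from 27.9 and 25.5 to 81.9 and 76.7 CPM (log2 fold change 1.57, SE 0.0670, edgeR adjusted p = 1.2e-17). SOX9 fell 1.76-fold, NOTCH1 1.49-fold and ALDH1A3 by 1.21 on the log2 scale, and BMI1 rose 1.46-fold. KLF4, a reprogramming factor that the study does not name, rose from 65.8 and 65.2 to 293 and 311 CPM (log2 fold change 2.20, SE 0.0442, edgeR adjusted p = 7.2e-25). It was at 278 CPM in untreated ZMYND8 cells. POU5F1, NANOG, SOX2 and TWIST1 had at most 5 counts in any of the 4 libraries and were not tested. Of the list of stemness genes, 6 of 11 rose, 5 fell and 0 did not pass. Its median was 0.15, and the sign changed with the processing. This list also holds genes that the study does not name, such as KLF4 and PROM1. ALDH1A1 rose from 0 counts to 21 and 10 and PROM1 from 0 to 4 and 6, and PROM1 lost its call without either GFP library or the second treated library.

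For drug efflux and resistance genes, 4 of 18 rose, 11 fell and 3 did not pass (median −0.41). ABCB1, the P-glycoprotein that exports doxorubicin, had 0 counts in both GFP libraries and 11 and 13 in the treated ZMYND8 libraries, at least 3.22-fold higher against 3 counts per library (edgeR adjusted p = 4.8e-04). It was at 0 in untreated ZMYND8 cells and at 0.686 CPM in GFP cells with the drug. ABCC1 was at 14.1 and 10.8 CPM and 8.99 and 10.1 CPM, and ABCC2 at 1.77 and 1.95 CPM and 2.60 and 2.55 CPM, neither past the test (edgeR adjusted p = 0.0502 and 0.091). ABCC1 passed it as a fall without the low-count filter, with the 4 libraries alone and without the second library of either condition, and ABCC2 passed it as a rise with total counts. ABCG2, another exporter of anthracyclines, rose from 0.811 and 1.00 to 9.39 and 10.3 CPM (log2 fold change 3.44, SE 0.204, edgeR adjusted p = 1.6e-14), below the 16.4 CPM of untreated ZMYND8 cells. The lipid transporters ABCA3 and ABCA2 fell 6.94-fold and 3.83-fold.

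Genes of DNA replication and E2F targets are switched on at the entry into S phase. Of these, 42 of 52 rose, 6 fell and 4 did not pass, with a median of 0.74. E2F2, one of the activating E2F factors, rose from 5.47 and 7.07 to 35.6 and 35.6 CPM (log2 fold change 2.51, SE 0.108, edgeR adjusted p = 1.5e-17). CDC6 and MCM10, which load and fire the replicative helicase, rose from 42.6 and 43.3 to 221 and 219 CPM (log2 fold change 2.36, SE 0.0499, edgeR adjusted p = 2.3e-24) and from 18.9 and 21.4 to 107 and 104 CPM (log2 fold change 2.39, SE 0.0670, edgeR adjusted p = 1.2e-21). The phosphatase gene CDC25A rose 3.74-fold, the checkpoint mediator CLSPN 3.42-fold and the clamp loader RFC3 3.17-fold, whereas the helicase subunit MCM5 fell by 0.69 on the log2 scale. CDC6 stood at 190.3 CPM in GFP cells with doxorubicin and 85.8 CPM in untreated ZMYND8 cells. List medians of the steps were 0.28 for the line without doxorubicin, 1.24 for doxorubicin in GFP cells and 0.66 for doxorubicin in ZMYND8 cells.

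E2F sites were searched as TTTCCCGC and TTTGGCGC on both strands, and 20 of 43 promoters of the list held one (46.5%). The share was 2.27% of all promoters and 3.49% of the promoters of tested genes. The CDC6 promoter (chr17:40287629-40287928, plus strand) is shown with its match in capitals, because CDC6 was among the members with the largest rises.
CDC6: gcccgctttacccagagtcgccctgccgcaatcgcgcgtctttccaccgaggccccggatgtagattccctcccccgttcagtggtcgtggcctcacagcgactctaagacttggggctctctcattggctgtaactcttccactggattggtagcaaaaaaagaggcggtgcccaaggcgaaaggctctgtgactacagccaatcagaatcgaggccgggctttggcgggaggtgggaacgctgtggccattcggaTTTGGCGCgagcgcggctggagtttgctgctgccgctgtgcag

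Genes of homologous recombination, the Fanconi pathway and checkpoints gave another list with more rises than falls, in which 28 of 36 rose, 5 fell and 3 did not pass (median 0.62). BRCA1 rose from 34.3 and 36.6 to 113 and 107 CPM (log2 fold change 1.64, SE 0.0559, edgeR adjusted p = 8.1e-20), XRCC2, a gene of homologous recombination, from 12.2 and 12.4 to 54.3 and 47.2 CPM (log2 fold change 2.04, SE 0.103, edgeR adjusted p = 4.6e-16), and CHEK2, a checkpoint kinase, from 10.4 and 10.4 to 40.5 and 39.8 CPM. FANCB, a subunit of the Fanconi core complex, and the nuclease EXO1 rose 5.86-fold and 3.37-fold. ATM and CHEK1 fell, ATM, the kinase that senses double-strand breaks, from 135 and 124 to 48.8 and 48.7 CPM (log2 fold change −1.41, SE 0.0588, edgeR adjusted p = 7.0e-18). Of the mitosis and G2/M genes, 28 of 48 rose, 11 fell and 9 did not pass and none changed past 1.5 (median 0.25). CDK1, the kinase of mitotic entry, rose from 169.6 and 161 to 350.4 and 349 CPM (log2 fold change 1.08, SE 0.0470, edgeR adjusted p = 1.9e-17), the kinesin KIF23 2.04-fold and the kinetochore gene CENPI 2.28-fold. PLK1, another mitotic kinase, fell from 93.1 and 85.1 to 46.4 and 46.7 CPM.

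For p53 targets, 14 of 31 rose, 11 fell and 6 did not pass (median 0.12), shares not far from those of all genes. AEN, a nuclease induced in apoptosis, rose from 21.6 and 22.8 to 165 and 173 CPM (log2 fold change 2.93, SE 0.0547, edgeR adjusted p = 1.5e-25), the death receptor FAS from 4.21 and 4.80 to 21.1 and 21.4 CPM (log2 fold change 2.24, SE 0.121, edgeR adjusted p = 2.4e-15), and CDKN1A (p21), the inhibitor of cell cycle kinases, from 114 and 106 to 263 and 256 CPM (log2 fold change 1.24, SE 0.0428, edgeR adjusted p = 1.2e-19). With doxorubicin alone, GFP cells held 447 CPM of CDKN1A. The largest fall of the list was that of TNFRSF10C, from a mean of 3.11 to 0.769 CPM (log2 fold change −2.01, edgeR adjusted p = 5.4e-06). Of the BCL2 family and caspases, 11 of 27 rose, 12 fell and 4 did not pass, with a median of −0.15 that turned to 0.09 with total counts. BMF, a BH3-only protein, fell from 56.2 and 60.2 to 5.45 and 5.19 CPM (log2 fold change −3.45, SE 0.0948, edgeR adjusted p = 7.4e-22), against the rise of PMAIP1 given above. MCL1, the survival protein that PMAIP1 binds, rose from 325 and 327 to 728 and 718 CPM (log2 fold change 1.15, SE 0.0383, edgeR adjusted p = 5.0e-20).

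Immediate early genes respond within minutes to growth factors and stress, and of the AP-1, immediate early and MYC list, 15 of 25 rose, 7 fell and 3 did not pass (median 0.56). FOS rose from 1.27 and 1.90 to 46.4 and 40.1 CPM (log2 fold change 4.77, SE 0.150, edgeR adjusted p = 1.4e-20), FOSB from 0.710 and 0.580 to 12.04 and 10.3 CPM and the zinc-finger factors EGR2 and EGR3 by 4.77 and 3.80 (log2). EGR1 rose 10.9-fold and ATF3, a stress-induced factor, 12.7-fold. FOS stood at 8.38 CPM in GFP cells with doxorubicin and 14.4 CPM in untreated ZMYND8 cells.

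Among the partners of ZMYND8 and the histone demethylases and methyltransferases, 17 of 31 rose, 8 fell and 6 did not pass (median 0.25). The list also held the bromodomain gene BRDT, which is counted among the germline genes too. KDM5C, a demethylase of H3K4, rose from 107 and 114 to 175 and 169.9 CPM (log2 fold change 0.64, SE 0.0472, edgeR adjusted p = 1.7e-12), and EZH2, the methyltransferase of H3K27, from 48.3 and 50.5 to 122 and 123 CPM (log2 fold change 1.32, SE 0.0529, edgeR adjusted p = 3.2e-18). ZNF532, a zinc-finger protein found in complexes with ZMYND8, fell from 60.8 and 58.5 to 21.9 and 20.8 CPM (log2 fold change −1.48, SE 0.0820, edgeR adjusted p = 3.6e-15). KDM5C was at 191 CPM in untreated ZMYND8 cells and at 90.5 CPM in GFP cells with doxorubicin, and EZH2 at 85.4 and 87.7 CPM.

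Of the Frizzled receptors and Wnt components, 7 of 25 rose, 11 fell and 7 did not pass, with a median of −0.21 that turned to 0.03 with total counts. LRP5, the Wnt coreceptor, fell from 425 and 429.8 to 48.5 and 47.8 CPM (log2 fold change −3.15, SE 0.0522, edgeR adjusted p = 1.2e-26), while the receptor FZD8 rose from 1.12 and 1.11 to 5.29 and 6.68 CPM and the ligand WNT5A from 1.72 and 1.05 to 6.59 and 7.23 CPM. Of the receptor tyrosine kinases and ligands, 19 of 39 rose, 12 fell and 8 did not pass (median 0.27), and the members with the largest rises were near 0 in GFP cells. ERBB4, a receptor of neuregulins, went from 0 to 12 and 12 counts, and NTRK3, a neurotrophin receptor, to 1.75 and 1.66 CPM.

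Germline and testis genes are silenced in most adult tissues. Only 22 of 38 passed the filter on low counts, which a gene passes through the condition where it is high, so their counts are a description. Of those tested, 17 of 22 rose, 1 fell and 4 did not pass, with a median of 3.11, or 2.29 with the 6 genes at 0 in GFP cells set at their bound. Apart from BRDT, mean levels stayed at or below 5.99 CPM. DDX4, an RNA helicase of germ cells, went from 0 to 23 and 29 counts (0.935 and 1.23 CPM), DAZL, a germ cell RNA-binding protein, to 17 and 17 and TEX15, a meiosis gene, to 19 and 26. All 3 were at 0 in untreated ZMYND8 cells and at 1.85, 1.61 and 1.07 CPM in GFP cells with doxorubicin. BRDT and the tumor antigen gene MAGEA6 were instead near their final level in untreated ZMYND8 cells, MAGEA6 at 5.602 CPM against 0.412 CPM in GFP cells. SYCP2, a protein of the synaptonemal complex, was the member that fell, by 2.04 on the log2 scale. Rises of this kind from 0 counts were also those of ABCB1, ALDH1A1, PROM1 and ERBB4, and whether they come from spliced transcripts was not tested.

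Whether both changes add up was asked with the interaction, the log2 change with doxorubicin in ZMYND8 cells minus that in GFP cells, which is also the combined change minus the sum of the separate ones. At an adjusted p-value of 0.05, 5371 of 18801 genes differed from additivity, 12.7% of the genes tested with a positive and 15.8% with a negative interaction. Among the upregulated genes called above, 273 had a negative interaction, which means a smaller rise than the sum, 76 a positive one, and 1969 did not pass. Among the downregulated genes 374 fell by less than the sum and 193 by more, and 1135 did not pass. The combined change and the interaction share all 4 libraries, so the direction of one bears on the other.

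Genes of the cell cycle lay below the sum. In the replication list the interactions past the test were 46 negative and 0 positive of 52 (median −0.64), in the mitosis list 42 negative and 0 positive of 48 (median −0.57) and in the recombination list 26 negative and 1 positive of 36 (median −0.51). MCM10 reached 107 and 104 CPM while the drug alone gave 117 CPM and the line alone 54.2 CPM, an interaction of −1.58 (edgeR adjusted p = 5.0e-13). Lipid synthesis genes went beyond the sum in their fall, with 22 negative and 0 positive interactions of 31 (median −0.45), among them SCD at −1.56 (edgeR adjusted p = 3.9e-16). Cytokine genes had 4 negative and 24 positive interactions of 38 (median 0.56), and interferon-stimulated genes 25 negative and 13 positive of 52 (median −0.14). ISG15 was close to additive (0.02, edgeR adjusted p = 0.89), and RSAD2 was not (−2.30, edgeR adjusted p = 5.2e-09). Over all genes the median interaction was −0.01.

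**Figure D4:**
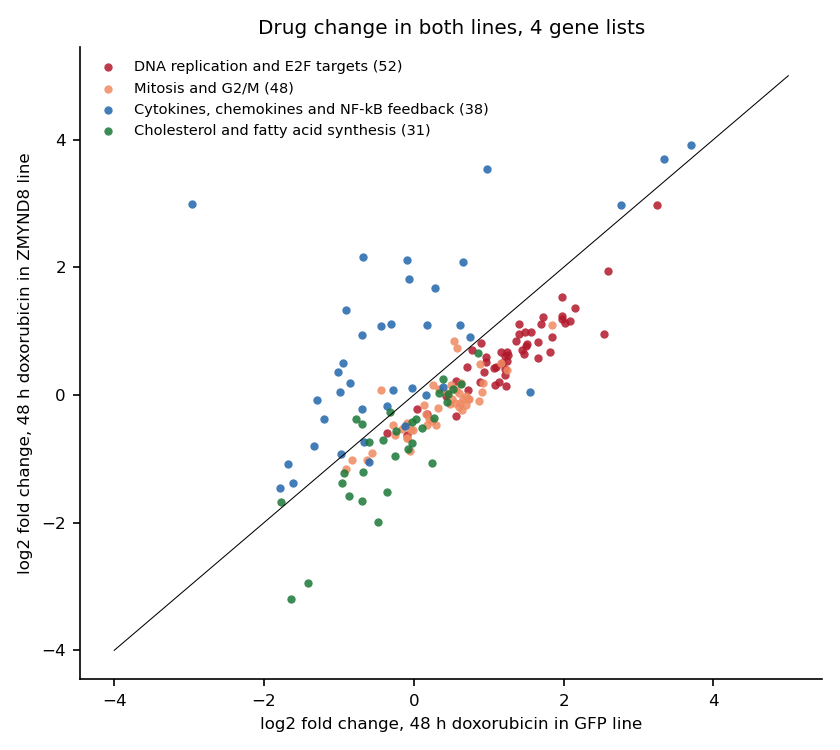
Members of 4 gene lists at their log2 fold change with 48 h doxorubicin in GFP cells (x axis) and in ZMYND8 cells (y axis), with the line of equal change. Replication and mitosis genes lie mostly below the line (median interactions −0.64 and −0.57), as do lipid synthesis genes (−0.45), and cytokine genes mostly above it (0.56).

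The other system of the study holds separate libraries, in which cells labelled as transiently overexpressing ZMYND8, given the same dose of doxorubicin for 48 h, stand against control cells, 2 libraries each with 5740091 to 5972396 counts. ZMYND8 was not higher there, with a log2 fold change of −0.55 (edgeR adjusted p = 0.18), so these are called libraries labelled ZMYND8 plus doxorubicin. Of 15697 genes tested, 605 (3.85%) passed an adjusted p-value of 0.05 upward and 466 (2.97%) downward. These counts rest on single libraries. They were 118 and 34 without the first library labelled ZMYND8 plus doxorubicin, 206 and 95 without the second, 336 and 396 without the first control and 401 and 387 without the second. A fit with a replicate block gave 1407 higher and 1388 lower, and whether the replicate numbers pair these libraries was not tested. The values that follow are from the fit without it. Of the 882 genes upregulated in the inducible lines and tested in both systems, 166 (18.8%) were also higher and 2 lower. The 166 are 27.8% of the 598 genes higher in the transient libraries. Of the 1340 downregulated genes, 220 (16.4%) were also lower and 5 higher, which makes 47.9% of the 459 lower there. Across the 15082 genes tested in both, Pearson's r of the log2 fold changes was 0.47, a description over genes that are not independent and that share the cell line and the drug.

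Among the lists given here, replication, interferon, hypoxia, lipid synthesis and matrix kept the sign of their median in the transient libraries. The cytokine list did not. The median was 1.30 for replication (42 of 52 higher), 1.16 for interferon-stimulated genes (21 of 51 higher) and −0.72 for hypoxia and glycolysis (15 of 35 lower). It was −0.24 for lipid synthesis (2 of 31 lower), 0.29 for cytokines and −0.18 for matrix genes. KRT17 was higher in both systems, from 0 in both transient controls to 5.17 ± 0.344 CPM (SD, 2 libraries, edgeR adjusted p = 0.011). So were ISG15 at 2.29 (edgeR adjusted p = 0.015) and CDC6 at 1.78 (edgeR adjusted p = 0.0087). SCD was lower in both (−1.31, edgeR adjusted p = 0.02). The counts of these libraries do not keep the strands apart. Where at least 90% of a gene's exons lay within exons of an opposite-strand gene of at least 20 CPM, its density of counts was 1.43 to 1.62 times that of the other gene in the transient libraries compared (median over 406 pairs), against 0.0804 to 0.0907 in the 4 inducible libraries (377 pairs), so transient values of such genes can hold reads of both. Of the genes that were low in untreated ZMYND8 cells, 3 did not pass there, with −0.42 for SPARC (edgeR adjusted p = 0.63), 1.08 for SERPINA1 (edgeR adjusted p = 0.12) and −0.06 for PLAT (edgeR adjusted p = 0.92).

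**Figure D5:**
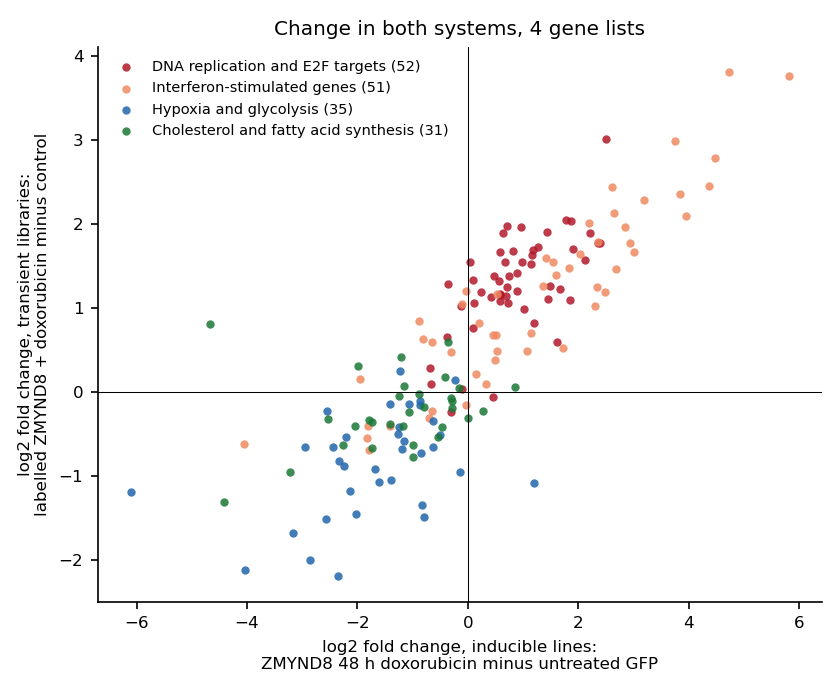
Members of 4 gene lists at their log2 fold change in the inducible lines (x axis, ZMYND8 with 48 h doxorubicin against untreated GFP) and in the transient libraries (y axis, labelled ZMYND8 plus doxorubicin against control), which share no sample. Replication and interferon-stimulated genes gather at the upper right (transient medians 1.30 and 1.16) and hypoxia and glycolysis genes at the lower left (−0.72).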

How the data were processed

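Poly(A) RNA libraries of MDA-MB-231 cells were sequenced, and the authors deposited unnormalized counts, in which a read pair counts once for its gene. Per the file headers the authors counted exons with featureCounts 1.6.4 on GENCODE release 31 with the reverse-strand setting, which leaves out reads that map to several places. The submitters' processing notes list Trim Galore, HISAT2, DESeq2 and hg38, while the methods of the study name TopHat. Replicates were not pooled. Libraries of the inducible lines held 18300628 to 23724398 counts. The replicates of each condition differed by more than sampling noise (chi-square per degree of freedom 2.21 in GFP cells and 2.36 in ZMYND8 cells with doxorubicin). In the other conditions behind the steps and the interaction it was 2.19 (GFP cells with 48 h doxorubicin) and 5.21 (untreated ZMYND8 cells).

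Samples were grouped by the labels. Counts were tested with edgeR 4.0.16 (R 4.3.3) by the quasi-likelihood method, with TMM factors, filterByExpr, 1 mean per condition over all 12 inducible libraries and Benjamini-Hochberg adjustment over the 18801 of 60603 genes that passed the filter. The 6 transient libraries were fitted apart. Genes were called at an adjusted p-value of 0.05 and a log2 fold change of 1.5. The study used this cutoff in a figure on gene expression and 1 in its methods. No exact permutation test of 2 against 2 libraries can go below p = 0.333. Ratios against 1 to 3 counts have exact 95% counting intervals, and those against 0 use a floor of 3 counts per library. Self-tests used simulated data. DESeq2 1.42.0 was an alternative.

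The conditions, the gene lists and the tests were chosen with earlier results of these data known. Named genes were ZMYND8, the 8 largest rises and falls by fold (at least 5 CPM, no overlap) and by CPM, up to 4 members of each list with the largest change, the genes the study followed, and the 6 largest interactions in each direction (called genes of at least 5 CPM). GBP2, IFITM1, IFNL1, HLA-B, B2M, CXCL8, NFKBIA, TNFAIP3, IL6, CDKN1A, ATM, CHEK1, PLK1, MCM5, FASN, EBP, FN1, ITGB1, GRHL2, GAPDH, ADM, DDIT3, ATF4, EGR1, ATF3, SYCP2, MAGEA6, CD14, MCL1 and ALDH1A3, the mitochondrial group and the promoters shown were added after their values were seen. Of 766 list entries, 700 were tested, 64 did not pass the filter and 2 names were not matched. Sequences are from RefSeq (GRCh38.p14), and 12575 tested genes matched a promoter by symbol. Some genes that these rules name are not reported here.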

Additional observations from a re-analysis of the deposited data

Results flagged for a closer look

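The change with 48 h of doxorubicin differed between the ZMYND8 and the GFP line at an adjusted p-value of 0.05 in 2397 genes with a positive and 2974 genes with a negative interaction, tested as the interaction term of the edgeR fit. Conditions of 2 libraries are too small for a test of single outlying libraries. The 6 most positive and 6 most negative interactions follow, of called genes with a mean of at least 5 CPM in one of the 4 conditions, with mean levels of 2 libraries in untreated GFP cells, GFP cells with doxorubicin, untreated ZMYND8 cells and ZMYND8 cells with doxorubicin, in this order.

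Among negative interactions, BRDT at −7.45 (SE 0.935, edgeR adjusted p = 9.4e-07) stood at 0, 0.804, 28.3 and 21.7 CPM. The endocytosis gene AMPH at −3.54 (SE 0.424, edgeR adjusted p = 2.6e-07) stood at 0.209, 1.47, 12.1 and 7.22 CPM. The carboxypeptidase gene CPA4 at −3.09 (SE 0.147, edgeR adjusted p = 1.7e-14) stood at 4.46, 27.8, 44.2 and 32.3 CPM. The heparan sulfate sulfotransferase gene HS6ST3 at −3.00 (SE 0.505, edgeR adjusted p = 4.1e-05) stood at 0.130, 1.48, 4.94 and 6.79 CPM. The interferon-stimulated gene IFI44L at −2.57 (SE 0.316, edgeR adjusted p = 4.2e-07) stood at 0.490, 9.55, 3.40 and 11.01 CPM. The exchange factor gene ARHGEF16 at −2.55 (SE 0.306, edgeR adjusted p = 2.6e-07) stood at 1.39, 5.65, 7.72 and 5.32 CPM. In these 6 genes each change alone gave a higher level than untreated GFP cells.

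Among positive interactions, the deadenylase gene PARN at 8.57 (SE 1.05, edgeR adjusted p = 3.8e-07) stood at 5.601, 0.153, 0.177 and 1.88 CPM, with treated libraries of 3.50 and 0.255 CPM that lay far apart. The collagenase gene MMP8 at 8.33 (SE 1.03, edgeR adjusted p = 5.4e-07) stood at 9.86, 2.17, 0 and 0.418 CPM. The guidance gene NTN1 at 5.43 (SE 1.51, edgeR adjusted p = 0.0076) stood at 7.70, 7.66, 0 and 0.254 CPM. The hedgehog-binding gene HHIP at 3.74 (SE 0.246, edgeR adjusted p = 7.8e-12) stood at 23.8, 7.29, 1.03 and 4.23 CPM. NTN1 lost its call without the second library of either ZMYND8 condition. The other two were POU2F2-AS2 at 5.54 (SE 1.95, edgeR adjusted p = 0.034), at 6.86, 1.17, 0 and 0.0416 CPM, and NTM at 3.57 (SE 1.17, edgeR adjusted p = 0.027), at 9.87, 2.42, 0.0279 and 0.0832 CPM. POU2F2-AS2 lost its call in 6 alternatives, 5 of them with one library left out, and NTM in 5, down to 2.56 without the second untreated ZMYND8 library. These 6 genes stood at or below 1.03 CPM in untreated ZMYND8 cells, and at 0 counts a fitted change depends on the prior count.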

How the results depend on the processing

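The combined effect kept the direction of every gene list except the mesenchymal, stemness, BCL2 and Wnt lists under the alternatives run. With a filter of a mean of at least 1 CPM, 1000 genes were called upward and 1242 downward, as fewer genes were tested, so that 44.6% of the calls were upward in place of 57.7%, and a log2 cutoff of 1 gave 3038 genes downward. DESeq2 gave 2100 up and 1577 down, total count scaling 2894 and 1266, no filter 3040 and 1903, the 4 libraries alone 1936 and 1588, and leaving out one library 2274 to 2412 and 1722 to 1787. The mesenchymal median was −0.74 at a mean of at least 1 CPM, −0.036 without a filter, −0.76 with the 4 libraries alone and −0.224 to 0.029 with one library left out. The stemness median was −0.51 at a mean of at least 1 CPM and −0.54 with the 4 libraries alone. With total counts the BCL2 median was 0.093 and the Wnt median 0.032. B2M ranged from −0.0037 to 0.175 (log2) with one library left out. The labels number the replicates, but differences between numbered replicates correlated across genes by −0.0876 between both inducible conditions. The numbers thus did not pair these samples, and pairing was not checked in the transient libraries. A fit with the replicate block called 2303 genes up and 1701 down in the combined effect. In the transient libraries that fit gave 1407 higher and 1388 lower, DESeq2 720 lower, and leaving out one library 118 to 401 higher and 34 to 396 lower. The cause of these shifts was not tested. Of the values for single named genes in the combined effect, 11 fell below the threshold, in DCN, PROM1, GRHL2 and PARN, and 10 passed it newly, in ABCC1, ABCC2 and B2M. Of those for the interaction, 13 fell below it, in POU2F2-AS2, NTM and NTN1. Depth limits the genes at 0 counts, whose folds are bounds.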
